A study of Mus musculus with 6 samples.

Results

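The REG family lectins Reg1, Reg3a, Reg3b, Reg3g and Reg4 and the Paneth cell products Lyz1, Mmp7, Ang4 and Itln1 were followed in the irradiated mouse intestine. These 9 genes were found by their symbols in the array annotation and are read by 12 probes, out of 19057 named genes on the array. Each gene was measured by the probe with the highest mean over the 6 arrays, and its other probes are given beside it. Intestinal RNA was hybridized to 6 Illumina MouseWG-6 v2 arrays. Each array was taken as 1 mouse from the numbered sample titles, and whether mice were pooled could not be checked. All samples came from male C57 mice (C57BL/6J in the published methods) that had received 7 Gy of total body radiation. In 3 of them free ubiquitin (free Ub) was given and in 3 PBS. The labels give an age of 4 weeks, injection after radiation and collection at 3.5 days. The published text gives an earlier time in a legend, and older mice and injection before radiation in its methods, and these differences could not be settled from the values. No unirradiated intestine was among the arrays, so each value sets free Ub against PBS after radiation.

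REG proteins are small secreted C-type lectins. Reg3b and Reg3g are made by enterocytes and Paneth cells, bind bacterial surfaces and keep bacteria away from the epithelium, and their transcription is known to rise through IL-22 and STAT3. Several REG genes were first found in the pancreas, where acinar cells make them under stress. Paneth cells sit at the base of small intestinal crypts and release lysozyme (Lyz1), α-defensins and the ribonuclease angiogenin 4 (Ang4). Mmp7 is the protease that activates mouse α-defensins, and intelectin 1 (Itln1) is a lectin of Paneth and goblet cells that binds microbial sugars.

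The tissue label was checked against marker genes, as log2 signals. The brush border gene Vil1 lay between 12.49 and 12.87 on the 6 arrays and the disaccharidase Sis between 13.20 and 13.61. Of 18 enterocyte genes measured, 16 were above the floor on every array. The exceptions, the fatty acid carriers Fabp1 and Fabp2, which enterocytes make in abundance, were at the floor on 4 and 3 arrays, so a value at the floor cannot be read as low expression. Fabp6 and Slc10a2, the bile acid carriers of the ileum, and the distal colon factor Hoxb13 were at the floor on all 6 arrays, and were not read further for that reason, whereas Pdx1, a factor of duodenum and pancreas, lay between 8.56 and 9.44. The labels do not name the segment. Pancreatic acinar transcripts were present on every array and differed greatly between mice, as described with the REG genes.

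Of the 7 REG genes measured, 6 (Reg3b, Reg3d, Reg3a, Reg2, Reg1 and Reg3g) lie within 98.0 kb of chromosome 6 (78370885 to 78468874, GRCm38.p6), and Reg4 lies on chromosome 3. The promoters of 5 cluster genes are shown (RefSeq, GRCm38.p6, 250 bases before to 50 after the start, 5′ to 3′ on the gene's strand), because Reg3b, Reg3g and Reg3a on the one hand and Reg3d and Reg2 on the other differed in how far they varied between the mice. The brightest Reg3b probe lay near the arrays' highest value (14.49), where variation may be understated. Its dimmer probe ranged over 0.80 log2. Capitals mark matches on either strand to 4 short motifs. The first is CACCTG, an E-box of the kind bound by the acinar transcription factor PTF1A. The second is TTCNNNGAA, the site of STAT factors. The third is CTTTGAT, the site of the Wnt pathway factors TCF and LEF. The fourth is TATAAA, the TATA box.
Reg3b (chr6:78370635-78370934, + strand): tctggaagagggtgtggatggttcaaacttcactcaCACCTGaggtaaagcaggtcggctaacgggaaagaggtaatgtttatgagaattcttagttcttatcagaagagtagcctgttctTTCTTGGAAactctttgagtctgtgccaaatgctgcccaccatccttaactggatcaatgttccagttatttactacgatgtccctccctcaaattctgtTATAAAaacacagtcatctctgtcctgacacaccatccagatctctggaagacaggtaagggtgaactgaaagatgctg
Reg3g (chr6:78468825-78469124, - strand): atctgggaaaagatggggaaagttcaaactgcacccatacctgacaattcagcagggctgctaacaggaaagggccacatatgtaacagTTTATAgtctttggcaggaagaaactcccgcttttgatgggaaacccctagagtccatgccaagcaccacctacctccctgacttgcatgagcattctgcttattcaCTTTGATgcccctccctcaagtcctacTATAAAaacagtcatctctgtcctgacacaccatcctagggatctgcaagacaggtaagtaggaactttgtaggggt
Reg3a (chr6:78380459-78380758, + strand): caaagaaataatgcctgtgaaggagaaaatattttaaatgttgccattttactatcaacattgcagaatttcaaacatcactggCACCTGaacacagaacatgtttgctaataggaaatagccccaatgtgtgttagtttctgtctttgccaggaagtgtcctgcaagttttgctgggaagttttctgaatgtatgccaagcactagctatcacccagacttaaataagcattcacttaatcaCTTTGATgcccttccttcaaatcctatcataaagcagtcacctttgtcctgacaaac
Reg3d (chr6:78378816-78379115, - strand): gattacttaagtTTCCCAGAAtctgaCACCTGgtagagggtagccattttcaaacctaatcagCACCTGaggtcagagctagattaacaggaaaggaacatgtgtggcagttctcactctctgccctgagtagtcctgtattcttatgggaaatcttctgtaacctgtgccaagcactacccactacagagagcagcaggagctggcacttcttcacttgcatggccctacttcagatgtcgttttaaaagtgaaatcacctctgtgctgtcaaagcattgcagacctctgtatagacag
Reg2 (chr6:78404905-78405204, + strand): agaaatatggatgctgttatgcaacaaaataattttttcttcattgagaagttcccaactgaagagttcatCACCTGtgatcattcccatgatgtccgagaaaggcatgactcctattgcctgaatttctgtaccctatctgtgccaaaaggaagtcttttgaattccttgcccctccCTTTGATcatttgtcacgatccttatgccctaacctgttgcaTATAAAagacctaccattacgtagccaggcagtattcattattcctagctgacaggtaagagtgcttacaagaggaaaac

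CACCTG was found in 4 of these promoters, all but that of Reg3g, and in 20.2% of 32851 promoters of the same length. A STAT match was found in Reg3b (TTCTTGGAA, first base at −129 from the start) and in Reg3d, against 8.3% of all promoters. The TCF/LEF letters were found in Reg3g, Reg3a and Reg2, against 3.73% of all promoters, and the TATA box letters in Reg3b, Reg3g and Reg2, against 13.6%. Reg3b and Reg3g were the most alike, with 214 identical positions in 310 alignment columns (69%). They shared a run of 29 bases, acagtcatctctgtcctgacacaccatcc, that began at −20 in both. The promoters shown were chosen by how their genes varied. Over all 7 REG genes CACCTG was found in 5, with a match in Reg4 and none in Reg1. These matches describe the letters and do not show binding.

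No gene of the set differed between free Ub and PBS beyond the spread between mice. With limma, 0 of the 9 passed an adjusted p under 0.05, 0 had an unadjusted p under 0.05, 0 passed a fold of 2, and all 9 had groups that overlapped. Over all 19057 genes, 11 (0.0577%) passed the adjusted p, 1093 (5.74%) had an unadjusted p under 0.05, 417 (2.19%) passed the study's rule of a fold above 2 with an unadjusted p under 0.05, and 1669 (8.76%) had groups that did not overlap. Of the 9 genes, 2 were slightly higher and 7 lower in mean value with free Ub, with a median difference of −0.12 log2, against −0.00 over all genes. The intervals of these differences were narrow for some genes and wide for others, and the limit they set on a change differed accordingly. The narrow intervals of Reg1 and of the brightest Reg3b probe came from signals close to the arrays' highest value (14.49). Differences there may be compressed, so these intervals may not limit a change in RNA.

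**Figure D1:**
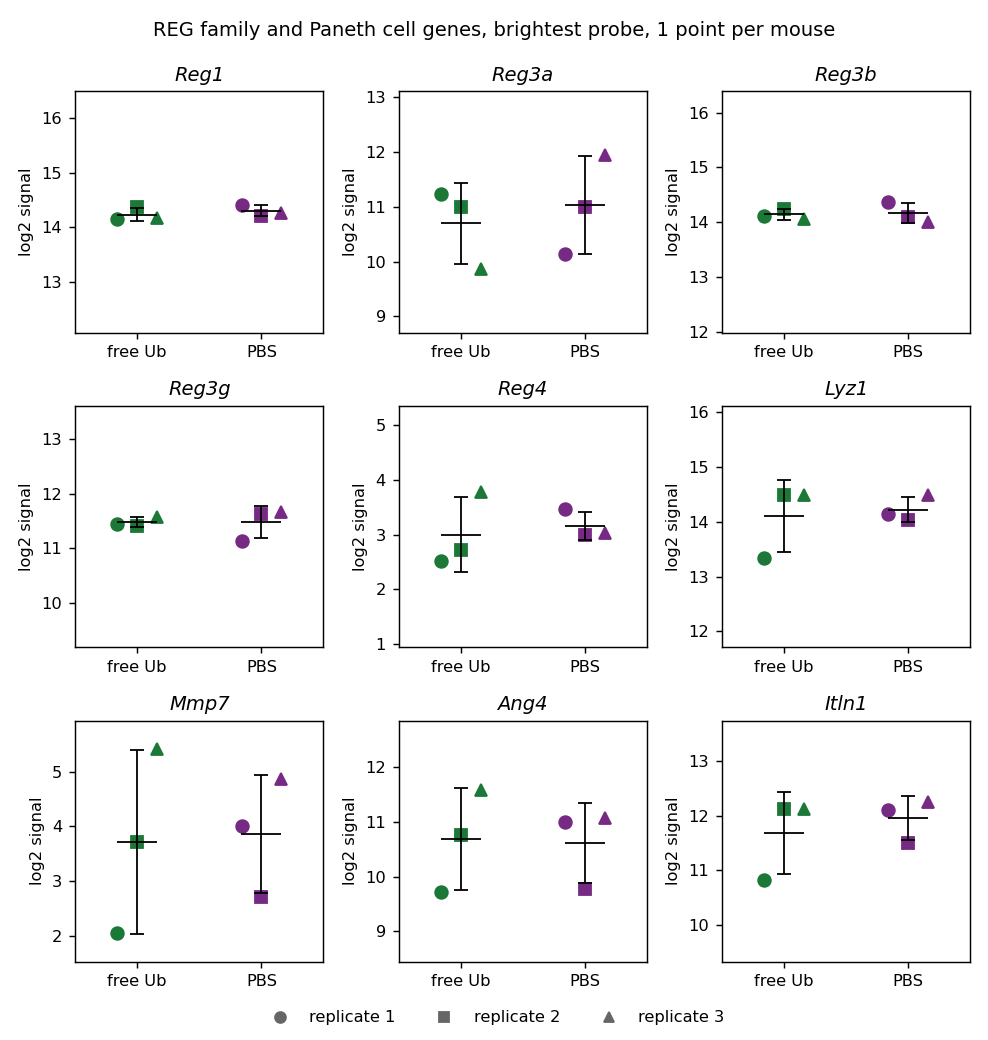
Log2 signal (vertical axis, each panel with its own start but about the same height) of the 9 genes by their brightest probe in each mouse, free Ub at the left and PBS at the right, with the group mean ± SD (n = 3) as lines. The groups overlap in every panel, with a range over the 6 mice of 0.27 log2 for Reg1 and 3.36 log2 for Mmp7.

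Reg1, a lectin of regenerating epithelium and of acinar cells, measured 14.15, 14.37 and 14.17 log2 with free Ub, against 14.41, 14.21 and 14.26 with PBS. The mean was 14.23 ± 0.12 with free Ub and 14.30 ± 0.10 with PBS (SD, n = 3 each), a difference of −0.07 log2 (95% CI −0.31 to 0.17; limma adjusted p = 0.951). All 6 values lay close to the top of the array's scale, which ended at 14.49 on every array after the authors' normalization.

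Reg3b had 14.12, 14.24 and 14.05 log2 with free Ub, against 14.36, 14.10 and 14.01 with PBS, a difference of −0.02 log2 (95% CI −0.32 to 0.28; limma adjusted p = 0.979). Its dimmer probe read 9.31, 8.81 and 8.95 with free Ub, against 8.74, 9.54 and 9.54 with PBS, and differed by −0.25 log2 (95% CI −1.01 to 0.51; limma adjusted p = 0.917). On both probes the groups overlapped, but the probes ordered the mice differently. PBS replicate 1 was highest on the brightest probe (14.36) and lowest on the dimmer one (8.74). PBS replicate 3 was lowest on the brightest probe (14.01) and had 9.54 on the dimmer one. The brightest probe lay near the top of the scale (14.49), and the correlations given for Reg3b rest on it alone. Reg3g, the gram-positive binding relative of Reg3b, had 11.44, 11.41 and 11.58 with free Ub, against 11.14, 11.63 and 11.66 with PBS. Its means were 11.48 ± 0.09 with free Ub and 11.48 ± 0.29 with PBS (SD, n = 3 each), and the difference was 0.00 log2 (95% CI −0.44 to 0.44; limma adjusted p = 0.998). On a linear scale the Reg3g interval ran from 0.738-fold to 1.36-fold, the widest of the intervals of Reg1, Reg3b (brightest probe) and Reg3g.

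Reg3a varied more. It had 11.24, 11.00 and 9.86 log2 with free Ub, against 10.14, 11.00 and 11.95 with PBS, a range of 2.09 log2 (4.27-fold) over the 6 mice. The mean was 10.70 ± 0.74 with free Ub and 11.03 ± 0.90 with PBS (SD, n = 3 each), a difference of −0.34 log2 (95% CI −2.01 to 1.34; limma adjusted p = 0.979). The lowest value was in free Ub replicate 3 and the highest in PBS replicate 3. Without free Ub replicate 3 the difference was 0.08 log2, and without PBS replicate 3 it was 0.12 log2, so its direction rested on single mice.

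Reg4, a REG gene of enteroendocrine and goblet cells, was dim, with 2.51, 2.71 and 3.78 log2 with free Ub, against 3.46, 3.0 and 3.03 with PBS. The difference was −0.16 log2 (95% CI −1.21 to 0.89; limma adjusted p = 0.979), and without free Ub replicate 1 it was 0.08 log2. None of the 6 values was at the floor.

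**Figure D2:**
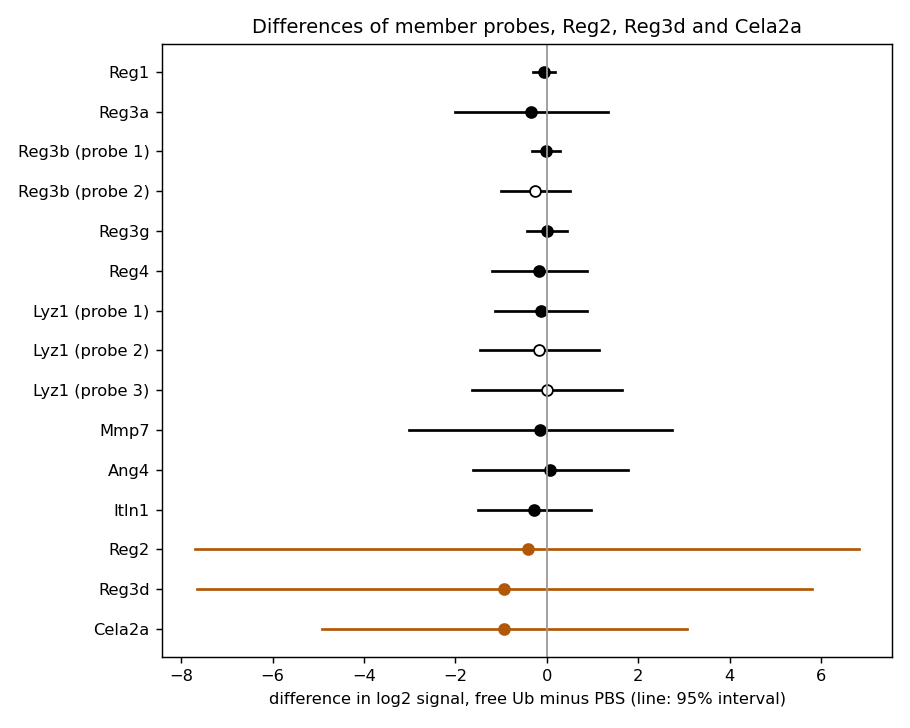
Difference of free Ub minus PBS in log2 (horizontal axis) for each probe of the 9 genes (filled: brightest probe, open: other probes) and for Reg2, Reg3d and Cela2a in brown, with the 95% confidence interval as a line. Every interval crosses 0, from −0.31 to 0.17 for Reg1 to −3.01 to 2.74 for Mmp7, and wider for Reg2, Reg3d and Cela2a.

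Pancreatic transcripts differed widely between the mice, and 18 of 22 acinar genes above the floor on every array had a wider range than Mmp7, the most variable of the 9 genes. Cela2a, a pancreatic elastase, had 14.06, 13.94 and 9.53 log2 with free Ub, against 13.82, 12.29 and 14.21 with PBS, a range of 4.69 log2 (25.8-fold). Of the 24 acinar genes measured, 22 were above the floor on all arrays, 20 of these had their lowest value in free Ub replicate 3, and 21 had their highest in free Ub replicate 1 or PBS replicate 3. The mean log2 level over these markers was 13.28, 11.85 and 7.66 with free Ub, against 11.60, 10.02 and 13.39 with PBS, a range of 5.73 log2 (53.0-fold). Prss3 and Ctrc, a trypsinogen and a chymotrypsin, were at the floor in free Ub replicate 3. Acinar genes with a range below that of Mmp7 were the trypsin inhibitor Spink1 (0.45 log2), the amylase Amy2a5 (2.17 log2), the lipase relative Pnliprp2 (2.56 log2) and the colipase Clps (3.29 log2). Spink1 lay between 13.77 and 14.22, Amy2a5 reached 14.49 in PBS replicate 1 and Clps 14.44 in PBS replicate 3. These lay near the top of the scale (14.49), so their ranges may be understated. Spink1 and Pnliprp2 were the 2 that were not lowest in free Ub replicate 3, and Amy2a5 was highest in PBS replicate 1. Between the groups the acinar genes did not pass the test, with 2 higher, 22 lower, a median difference of −0.81 log2, and 0 at an unadjusted p under 0.05. This median was 1.03 without free Ub replicate 3, 0.14 without PBS replicate 3, and −2.14 without free Ub replicate 1.

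The other REG genes of the chromosome 6 cluster followed Cela2a from mouse to mouse. Reg2, an acinar REG gene in mice, had 12.39, 10.39 and 3.97 log2 with free Ub, against 9.27, 6.88 and 11.87 with PBS, a range of 8.41 log2 (341-fold). Its Pearson r with Cela2a over the 6 mice was 0.94 (exact permutation p = 0.00278) and its Spearman rho 0.94 (exact permutation p = 0.0167). Reg3d had 8.98, 6.38 and 1.47 with free Ub, against 5.24, 4.72 and 9.66 with PBS, a range of 8.19 log2 (292-fold), with r = 0.87 (exact permutation p = 0.00139, the smallest that 6 arrays allow) and rho = 1.00 (exact permutation p = 0.00278). Without the 2 mice farthest from the Cela2a median (free Ub replicate 3 and PBS replicate 2), r was 0.86 for Reg2 and 0.97 for Reg3d, but Cela2a then spanned only 0.39 log2 (13.82 to 14.21) close to the top of the scale. Against the mean of the acinar markers, a measure added after the data were seen, r over the 6 mice was 0.99 for Reg2 and 0.97 for Reg3d. Both were lowest in free Ub replicate 3, and neither passed the test between the groups (Reg2 −0.42 log2, 95% CI −7.69 to 6.84, and Reg3d −0.93 log2, 95% CI −7.66 to 5.80).

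Among the 9 genes, Reg3a came nearest to this pattern, with r = 0.67 with Cela2a (exact permutation p = 0.169) and rho = 0.83 (exact permutation p = 0.0583). After Benjamini-Hochberg adjustment over the 9 genes these were 0.637 and 0.525. Without the 2 farthest mice its r was 0.98, over 4 mice in which Cela2a spanned 0.39 log2 near the top of the scale and r was −1.0 for Reg3b and 0.96 for Reg3g, so this value bears little weight. Against the mean of the acinar markers Reg3a had r = 0.77 (exact permutation p = 0.0611, adjusted p = 0.4). The other 8 genes had r from −0.71 (Reg4) to 0.48 (Reg1) and rho from −0.54 to 0.17 with Cela2a, the smallest adjusted p being 0.637 for r and 1 for rho. Their ranges over the mice ran from 0.27 log2 for Reg1, whose values lay near the top of the scale, to 3.36 log2 for Mmp7. Within a group there were 3 mice, too few for a correlation. With Cela2a as a covariate the differences between free Ub and PBS still did not pass the test for any of the 9 genes, but moved to −0.08 log2 for Reg3a, −0.36 for Reg4 and −0.47 for Mmp7.

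**Figure D3:**
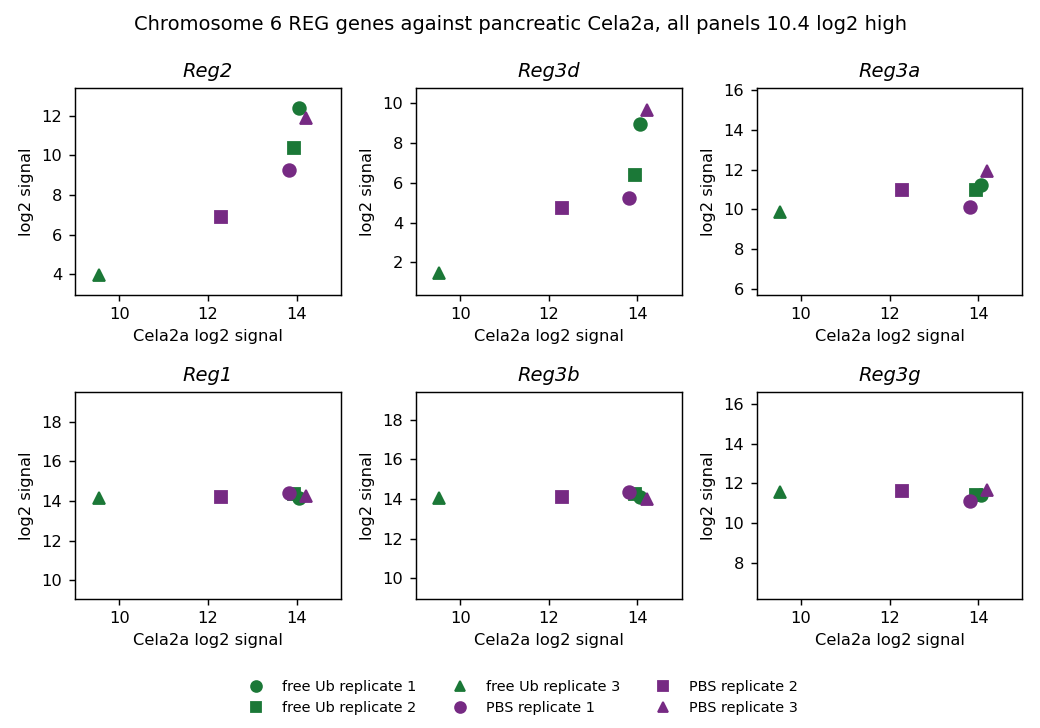
Log2 signal of REG genes (vertical axis) against that of Cela2a (horizontal axis) in the 6 mice, free Ub and PBS in separate colours. Reg2 and Reg3d climb over 8.41 and 8.19 log2 with Cela2a. Reg3a spans 2.09 log2, and its correlation with Cela2a did not pass the test (r = 0.67, exact permutation p = 0.169). Reg1 stays within 0.27 log2, but near the top of the scale, where a climb could not be seen.

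The Paneth cell products shared a pattern over the mice that did not follow the treatment. Lyz1 had 13.34, 14.49 and 14.49 log2 with free Ub, against 14.14, 14.04 and 14.49 with PBS, a difference of −0.12 log2 (95% CI −1.13 to 0.89; limma adjusted p = 0.979). On 3 arrays it was the brightest probe of all, at the top of the scale, so differences among those mice could not be seen on it. The second probe read 11.00, 12.39 and 12.44 with free Ub, against 12.32, 11.64 and 12.35 with PBS (−0.16 log2), and the third 10.78, 12.04 and 12.10 with free Ub, against 11.38, 10.93 and 12.60 with PBS (0.00 log2). On every Lyz1 probe free Ub replicate 1 was the lowest of the 6. In whole intestine, fewer Paneth cells and less RNA per Paneth cell cannot be told apart.

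Itln1 had 10.82, 12.12 and 12.12 log2 with free Ub, against 12.11, 11.50 and 12.25 with PBS, a difference of −0.27 log2 (95% CI −1.50 to 0.96; limma adjusted p = 0.979). Ang4 had 9.72, 10.76 and 11.57 with free Ub, against 10.99, 9.77 and 11.06 with PBS, a difference of 0.08 log2 (95% CI −1.62 to 1.77; limma adjusted p = 0.979). Mmp7, the defensin-processing protease, was dim and the most variable, with 2.05, 3.71 and 5.41 with free Ub, against 4.01, 2.71 and 4.86 with PBS, a range of 3.36 log2 (10.3-fold). Its mean was 3.72 ± 1.68 with free Ub and 3.86 ± 1.08 with PBS (SD, n = 3 each), a difference of −0.14 log2 (95% CI −3.01 to 2.74; limma adjusted p = 0.979). In each of these genes free Ub replicate 1 was lowest and PBS replicate 2 next. Without free Ub replicate 1 the difference was 0.26 log2 for Lyz1, 0.17 for Itln1, 0.56 for Ang4 and 0.70 for Mmp7, none past the test.

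The low mouse was also seen in the defensins, a pattern noticed in the values. The 4 Paneth cell products and the 6 defensins above the floor on every array (Defa3, Defa20, Defa21, Defa23, Defa26 and Defa39) all had their lowest value in free Ub replicate 1, as did 15 of their 16 probes, whereas 18.9% of all genes above the floor on every array were lowest there. The defensins are near-identical copies and Lyz1 has several probes, so these genes and probes are not independent observations. Defa3 and Defa20, near the top of the scale, deviated there by only −0.24 and −0.16 log2 from the gene's mean. The mean of the other 5 mice was 1.98-fold that of free Ub replicate 1 for Lyz1, 2.31-fold for Itln1, 2.16-fold for Ang4, 4.25-fold for Mmp7 and 3.06-fold for Defa39, and 1.15-fold for Defa20. Lyz1 was at the top of the scale on 3 of those 5 arrays and Defa20 close to it, so their folds may be understated. As a median over the 10 genes, the deviation from the gene's mean was −1.05, 0.18 and 0.22 log2 with free Ub, against 0.21, −0.24 and 0.55 log2 with PBS. Of 7 other Paneth cell genes above the floor on every array, 2 (Sox9 and Pla2g2a) were lowest in this mouse and 5 (Xbp1, Habp2, Gfi1, Mptx1 and Nupr1) in another. Sox9, a transcription factor that Paneth cells need and stem cells also use, had 8.88, 9.68 and 9.77 log2 with free Ub, against 9.42, 9.39 and 9.59 with PBS. Muc2, the goblet cell mucin, was also lowest in free Ub replicate 1 (12.82, against 13.12 to 13.58 in the other 5 mice). Of 17 goblet cell genes measured, 4 including Muc2 were lowest in this mouse, while Bcas1 (8.59) and Agr2 (4.90) were highest in it. The acinar level was 13.28 in this mouse and 13.39 in PBS replicate 3, which had the highest median of these 10 genes. The part of goblet cells, of acinar tissue or of the gut segment sampled, which the labels do not name, in the Paneth pattern was not tested.

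**Figure D4:**
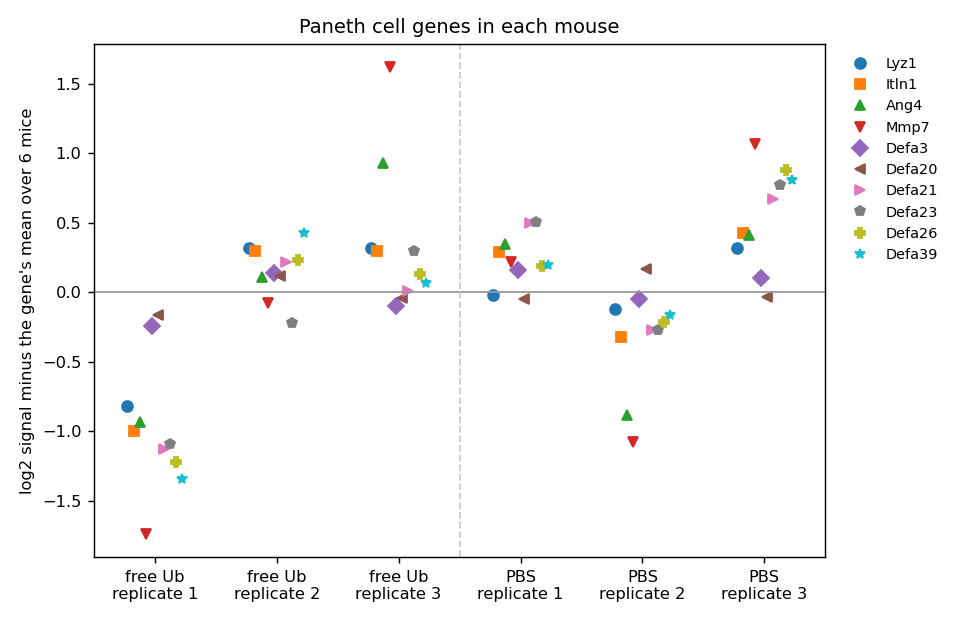
Deviation of the 4 Paneth cell products and 6 defensins from each gene's mean over the 6 mice in log2 (vertical axis), by mouse, with 1 symbol per gene. The median over the 10 genes is −1.05 log2 in free Ub replicate 1 and between −0.24 and 0.55 log2 in the other 5 mice.

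Among the α-defensins, 7 of 48 listed genes had a probe with a symbol, of which 6 were lower and 1 was higher in mean value with free Ub (median −0.56 log2), and none reached an unadjusted p under 0.05. Defa23 had 9.53, 10.40 and 10.92 log2 with free Ub, against 11.13, 10.34 and 11.39 with PBS, a difference of −0.67 log2 (limma adjusted p = 0.872). Defa21 had 6.49, 7.84 and 7.63 with free Ub, against 8.12, 7.35 and 8.29 with PBS. Defa3 was near the top of the scale, at 13.94, 14.33 and 14.08 with free Ub, against 14.34, 14.13 and 14.28 with PBS. The gene that was higher, Defa31, was near the floor, at 2.63, 0.00 and 1.78 with free Ub, against 0.01, 0.33 and 0.00 with PBS. Without free Ub replicate 1 the median of the 7 genes was −0.05 log2. The defensin genes are near-identical copies, so which of them a probe reads is uncertain.

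Of 12 other Paneth cell genes measured, 4 were higher and 7 lower in mean value, 1 was at the floor (Atoh1, the secretory lineage factor), and none reached an unadjusted p under 0.05 (median −0.03 log2). Xbp1, a factor of the secretory apparatus, lay between 11.75 and 12.02 on all 6 arrays. The phospholipase Pla2g2a had 5.87, 7.12 and 6.96 with free Ub, against 6.46, 6.12 and 7.51 with PBS. Nupr1, a stress gene that acinar cells also induce, was instead highest in free Ub replicate 1 and PBS replicate 3, with 10.03, 8.72 and 7.70 with free Ub, against 8.60, 7.81 and 10.98 with PBS. Mptx1, the mucosal pentraxin, had 4.83, 4.06 and 4.93 with free Ub, against 4.53, 4.44 and 4.06 with PBS. Ephb3, which positions Paneth cells in the crypt, had 2.0, 1.80 and 0.00 with free Ub, against 2.95, 2.90 and 1.13 with PBS. Wnt3, the Paneth cell Wnt ligand, and Nod2, a bacterial sensor, were each at the floor on at least 1 array of both groups.

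The IL-22 and STAT3 pathway that acts upstream of Reg3b and Reg3g also showed no called difference. Of 22 genes measured, 6 were higher and 14 lower in mean value, 2 were at the floor on all arrays, and 0 had an unadjusted p under 0.05 (median −0.06 log2). The 2 at the floor were Il22 itself and Ahr, a receptor needed by IL-22 producing lymphocytes. Stat3, the transcription factor of the pathway, had 9.76, 9.94 and 9.86 with free Ub, against 10.23, 10.28 and 9.91 with PBS, a difference of −0.29 log2 (limma adjusted p = 0.872; exact permutation p = 0.2), with groups that overlapped. Il10rb, the shared receptor chain for IL-22, had 7.66, 7.96 and 7.63 with free Ub, against 7.45, 7.49 and 7.50 with PBS, and was the 1 gene of the list whose groups did not overlap (0.27 log2, limma adjusted p = 0.872; exact permutation p = 0.1, the smallest possible). Over all genes, 8.76% had groups that did not overlap. Il23r had 0.78, 0.00 and 0.00 with free Ub, against 2.06, 2.84 and 0.40 with PBS. Il22ra2, the soluble IL-22 receptor, had 2.45, 1.60 and 0.00 with free Ub, against 0.01, 0.00 and 0.00 with PBS. Both lay near the floor.

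Among 25 other inducible defence genes, 14 were higher and 9 lower in mean value, and 2 were at the floor (median 0.05 log2). With limma, an unadjusted p under 0.05 was reached by 5.74% of all genes and by 1 gene of this list. That gene was Saa3, an acute phase serum amyloid, with 8.52, 7.69 and 8.02 log2 with free Ub, against 8.85, 8.67 and 9.12 with PBS. Its groups did not overlap, and the means were 8.08 ± 0.42 with free Ub and 8.88 ± 0.23 with PBS (SD, n = 3 each), a difference of −0.80 log2 (95% CI −1.49 to −0.12), which did not pass adjustment over all probes (limma adjusted p = 0.872; exact permutation p = 0.1). Saa3 was the 1 gene of these 25 whose groups did not overlap, against 8.76% of all genes. Pigr, the carrier of IgA into the lumen, had 11.45, 11.73 and 11.72 with free Ub, against 11.50, 11.49 and 11.11 with PBS. Retnlb, a goblet cell product that kills bacteria, had 4.41, 3.20 and 6.91 with free Ub, against 5.80, 0.00 and 0.00 with PBS, and the groups overlapped. Sprr1a had 0.00, 2.12 and 2.24 with free Ub, against 0.01, 0.00 and 0.00 with PBS. Lcn2, the siderophore-binding lipocalin, lay between 6.16 and 7.66 in all mice.

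Among 6134 genes with a mean above 6 log2, those whose pattern over the 6 arrays was most like Lyz1 were Smarca2 (r = 0.995), Sox9 (r = 0.982) and Spast (r = 0.976). Reg1 was nearest to Tk1 (r = 0.99), Cenpt and Pak4, Reg3b to Fth1 (r = 0.961), Calm3 and Fbxw17, and Reg3a to Adcy6 (r = 0.979), Mrpl53 and Gas2l1. Reg3g was nearest to Taf15 (r = 0.976), Glp2r and Mbd1, and Reg4 to Mrps17 (r = 0.993), Gask1b and Eif2b4. Mmp7 was nearest to Rwdd1 (r = 0.993), Sparc and Rpl4, Ang4 to Gtf2h3 (r = 0.985), Rps2 and Ube2q2, and Itln1 to Lsg1 (r = 0.994), Polr2d and Cdc20. Only Sox9 among these belongs to a Paneth list. With 6 arrays and this many candidates, high values of r arise readily, and these are given as a description. The Lyz1 probe used was at the top of the scale on 3 arrays, and those of Reg1 and Reg3b lay near it. Their patterns may therefore be partly set by that limit, and their other probes were not used here.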

How the data were processed

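The authors processed the array signals in GenomeStudio and applied a cubic-spline normalization; the deposited values were read as log2, which no source states. All 6 arrays share a median of 2.55, an upper quartile of 5.32 and a highest value of 14.49, and 32.2% to 33.7% of probes were within 0.01 of the array's lowest value (the floor). No detection p-values were used, so no gene was called absent. No further normalization was applied. All 45281 probes were fitted with limma 3.58.1 in R 4.3.3 (lmFit, eBayes; 2 groups, without covariates, two-sided tests) and p-values were adjusted by Benjamini-Hochberg over the whole table. The fit was tested on simulated data. Exact permutation of 3 against 3 cannot go below p = 0.1, and gave 0.5 or more for the brightest probe of each of the 9 genes. Correlations used all pairings of the 6 arrays. Replicates are different samples by their labels, so p-values measure the spread between these arrays, and their number limits the precision.

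Probes with 1 gene symbol (34885) were used for genes. Named genes were the 9 genes with every probe, up to 4 genes of each list with the smallest p, the acinar markers, and the 3 genes most like each of the 9. Genes outside this rule, such as Sox9, Muc2, Xbp1, Nupr1, Pla2g2a, Lcn2, Lyz2 and the tissue and segment markers, were added after their values were seen. The 9 genes and the 12 lists were chosen with earlier results of these data known. Alternatives covered normalization, floors, probe choice, probe filters, test, replicate block, pancreatic covariates and leaving out each mouse.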

Additional observations from a re-analysis of the deposited data

How the results depend on the processing

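None of the 9 genes passed an adjusted p, an unadjusted p under 0.05 or a fold of 2 under any alternative run, and their adjusted p ranged from 0.765 to 1. Because most differences were near 0, their sign turned easily. With array weights the difference was 0.08 log2 for Reg3b, −0.13 for Reg3g and −0.00 for Ang4, and it moved to −0.90 for Reg3a (limma adjusted p = 0.765) and −0.45 for Mmp7. With Cela2a as a covariate it was 0.00 for Reg3b, −0.03 for Reg3g and −0.08 for Ang4, and with the acinar mean (added after the data were seen) −0.01 for Reg3g and −0.02 for Ang4. A floor of 4 gave 0.18 for Mmp7, and Reg4 at floors of 4 and 6 and Mmp7 at a floor of 6 were constant and gave no value. Leaving out each mouse gave −0.78 to 0.12 for Reg3a, −0.09 to 0.08 for Reg3b, −0.17 to 0.09 for Reg3g, −0.55 to 0.08 for Reg4, −0.31 to 0.26 for Lyz1, −0.98 to 0.70 for Mmp7, −0.37 to 0.56 for Ang4 and −0.50 to 0.17 for Itln1. The median of the defensins was −0.78 to −0.05 and that of mesenteric fat markers −0.33 to 0.03, the defensin −0.05 and the fat −0.33 both without free Ub replicate 1. Correlations with Cela2a without the 2 farthest mice were −0.69 for Reg1, −1.0 for Reg3b, 0.96 for Reg3g, 0.02 for Lyz1 and 0.16 for Mmp7. The cause of these changes was not tested. Same-numbered samples did not deviate together (r = −0.003, 0.02 and −0.091), so the numbers are not taken as pairs. With the replicate block 0 genes of the whole table passed an adjusted p, against 11 without it, and 0 to 39 over all alternatives. Signals near the top of the scale (among them Lyz1, Cela2a, Reg1, Reg3b, Defa3, Defa20, Spink1, Amy2a5 and Clps) and near the floor (Reg4, Mmp7) limit what could be measured.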

Other observations

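Marker genes of other cell types did not pass the test between free Ub and PBS. Of 17 goblet cell genes measured, 9 were higher and 8 lower in mean value (median 0.01 log2). Of 18 enterocyte genes, 9 were higher and 9 lower (median 0.02 log2), and of 18 myeloid genes 8 were higher and 10 lower (median −0.19 log2). Of 10 smooth muscle genes, 9 were higher and 1 lower (median 0.23 log2). Single mice set some of these medians: without PBS replicate 3 that of smooth muscle was −0.10 and that of the myeloid genes 0.10 log2, and without PBS replicate 1 that of smooth muscle was 0.53. Of 19 segment markers, 9 were higher, 7 lower and 3 at the floor, and of 9 mesenteric fat genes 3 were higher, 5 lower and 1 at the floor (median −0.05 log2). With limma, 0 genes of these lists had an unadjusted p under 0.05 or passed the adjusted p. Lyz2, the lysozyme of macrophages, which is a separate gene from Lyz1, had 9.04, 7.93 and 8.41 log2 with free Ub, against 8.08, 7.81 and 9.31 with PBS, and its pattern over the mice was not that of Lyz1: it was second highest, not lowest, in free Ub replicate 1.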
